A study of Mus musculus with 6 samples.

Results

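The forkhead box (Fox), Sry-related HMG box (Sox), T-box (Tbx), GATA-finger (Gata) and Krüppel-like (Klf) transcription factors were examined in cultured mouse cerebellar granule neurons (CGNs). The members were all symbols made of one of these 5 family names, the subfamily letter in Fox genes and a number, which gave 99 of the 55341 genes in the count tables: 44 Fox, 19 Sox, 13 Tbx, 6 Gata and 17 Klf genes. Poly(A) RNA was sequenced in 6 libraries, 3 from CGNs given the vehicle DMSO and 3 from CGNs given GSK-126, a small molecule that inhibits EZH2. EZH2 is the Polycomb enzyme that trimethylates lysine 27 of histone H3, and the product, H3K27me3, marks repressed promoters. According to the study's methods, all cultures came from early postnatal CD1-IGS pups of both sexes with litters pooled, and all received AraC to stop non-neuronal cells from dividing. The labels gave the agent and the replicate number but neither dose nor day of harvest. The study's methods describe inhibitors added once, on an earlier or a later day in culture, with harvest on day 5. The labels do not say which start applied to these libraries. The comparison asks which of these regulators changed in RNA level under GSK-126 in these cultures. The libraries are bulk RNA and also held transcripts known from glia (Gfap), fibroblasts (Col1a1) and dividing cells (Mki67).

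Each family shares a DNA-binding domain. Forkhead and HMG-box proteins set cell identity in many lineages, with SoxB and SoxE factors marking neural stem cells and glia and SoxC factors marking young neurons. T-box and GATA factors pattern mesoderm and its derivatives, and the developmental members of these families are classic Polycomb targets, held silent by H3K27me3 in cells that do not use them. Klf proteins bind GC-rich and CACCC elements through 3 zinc fingers; Klf9 and Klf13 recruit the corepressor SIN3A, and Klf9 is a thyroid hormone target known from maturing neurons, whereas Klf2 and Klf4 are known from quiescence, vessel walls and injury responses.

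Sequence upstream of the start was printed for the Klf genes called by edgeR or DESeq2 (Klf13 and Klf9) and those with the highest fold changes (Klf2 and Klf4), because these promoters carry the elements that Klf proteins themselves bind. The 250 bases before the RefSeq start (GRCm38.p6) are given 5′ to 3′ on the gene's strand. Capitals mark GGGCGG (the GC box) and GGGTG (the CACCC box) on either strand. Neighbouring boxes can share 1 base, as in the Klf13 and Klf4 windows. The last bases of the Klf2 window lie in the first exon of the GENCODE gene.
Klf13, chr7:63938916-63939165, minus strand: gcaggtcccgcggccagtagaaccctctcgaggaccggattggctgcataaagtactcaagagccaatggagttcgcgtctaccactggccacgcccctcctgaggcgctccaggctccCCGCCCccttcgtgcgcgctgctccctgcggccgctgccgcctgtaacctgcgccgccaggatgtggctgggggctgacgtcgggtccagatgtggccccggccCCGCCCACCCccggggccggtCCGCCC
Klf9, chr19:23140976-23141225, plus strand: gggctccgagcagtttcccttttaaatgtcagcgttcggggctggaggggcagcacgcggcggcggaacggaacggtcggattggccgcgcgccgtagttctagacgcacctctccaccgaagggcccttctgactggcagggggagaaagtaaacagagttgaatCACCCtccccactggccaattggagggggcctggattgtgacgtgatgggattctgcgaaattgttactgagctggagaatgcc
Klf2, chr8:72318812-72319061, plus strand: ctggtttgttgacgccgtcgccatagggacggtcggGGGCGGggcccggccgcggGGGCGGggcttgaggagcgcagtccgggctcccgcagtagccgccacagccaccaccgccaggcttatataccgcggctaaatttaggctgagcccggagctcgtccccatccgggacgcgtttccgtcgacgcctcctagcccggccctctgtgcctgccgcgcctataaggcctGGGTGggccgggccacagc
Klf4, chr4:55532476-55532725, minus strand: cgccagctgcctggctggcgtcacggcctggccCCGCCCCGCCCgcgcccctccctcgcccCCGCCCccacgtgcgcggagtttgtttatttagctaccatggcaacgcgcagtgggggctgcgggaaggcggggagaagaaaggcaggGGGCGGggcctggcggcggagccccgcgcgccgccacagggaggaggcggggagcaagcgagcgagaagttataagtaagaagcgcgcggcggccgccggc

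The GC box was found 3 times in the Klf13 window, 2 times in that of Klf2 and 4 times in that of Klf4, and 0 times in that of Klf9. The CACCC box was found 1 time each in the Klf13, Klf9 and Klf2 windows and 0 times in the Klf4 window. Among all 27025 promoters of the same length, 32.9% held a GC box and 51.3% a CACCC box, and among the 11602 of the 16685 genes tested that had a window 57.7% and 57.2% did. RefSeq windows were matched for 67 of the 99 members, 37 of those tested for expression and 30 of those not tested. Median GC content was 69.6% in the former and 59.8% in the latter, against 59.6% for all genes tested that had a window. A GC box was held by 73.0% and 66.7% of these 2 groups of members, and a CACCC box by 56.8% and 73.3%. The windows cover only part of the members, and these differences were not tested.

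Of the 99 members, 58 had a CPM (count scaled to library size) of at least 1 in at least 3 of the 6 libraries and were tested, and 41 were not. By family, 25 of 44 Fox, 13 of 19 Sox, 4 of 13 Tbx, 2 of 6 Gata and 14 of 17 Klf genes were tested. Library totals ran from 8058760 to 12047837 counts over genes. GSK-126 replicate 1 was the deepest. No pair of libraries agreed within sampling noise (lowest chi-square per degree of freedom 10.5). Nothing in the labels says that the replicates are separate cultures, while the study's methods describe a replicate as CGNs of pooled litters. Neither source says that DMSO and GSK-126 libraries of the same number share a culture. By chi-square per degree of freedom, DMSO 2 was closest to GSK-126 2 (14.5) and DMSO 3 to GSK-126 3 (10.5). DMSO 1 was closer to DMSO 3 (17.7) and GSK-126 2 (18.2) than to GSK-126 1 (24.7). The libraries were taken as paired by replicate number, and the fit carried the number as a block. The p-values of that fit measure the spread left between these libraries once replicate differences are removed. Those without the block measure the full spread within a group.

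Levels between genes were compared as CPM per kilobase of merged exon. Klf9, a thyroid- and glucocorticoid-responsive repressor, was the highest member, with 69.7 in DMSO and 52.8 in GSK-126 (means of 3 libraries). Sox4, a SoxC factor of immature neurons, followed with 41.4 and 39.2, although an opposite-strand gene covers 54.6% of its exon bases. Foxo3, a target of AKT signalling, had 38.2 and 33.5, and Klf13 had 30.3 and 15.7. Foxk2 (20.6 and 20.4), the second Fox gene by this measure, Sox12 (22.7 and 23.9) and Klf6 (21.4 and 24.6) lay close together. The 2 highest T-box genes were Tbx18, a pericyte and leptomeningeal factor, with 10.7 and 12.4, and Tbx15 with 4.90 and 6.44. Gata6 (1.17 and 1.56) and Gata3 (0.342 and 0.558) were the only Gata genes tested. The plot of levels per kilobase shows that the order of neighbours is within the spread of the libraries over most of each family.

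**Figure D1:**
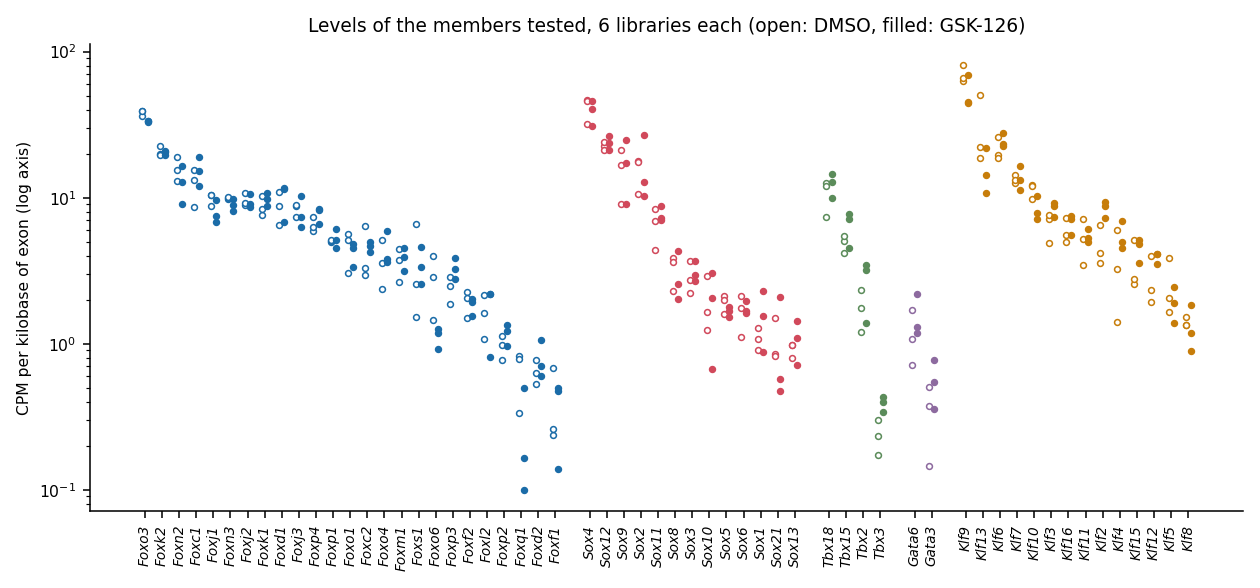
Level of each of the 58 members tested in the 6 libraries, in CPM per kilobase of exon on a log axis, with open points for DMSO and filled points for GSK-126 and families from left to right Fox, Sox, Tbx, Gata and Klf. Klf9, Sox4, Foxo3 and Klf13 have the highest DMSO means, and the Gata genes and Tbx3 lie at the low end.

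Klf13 fell under GSK-126 and was the only member past an adjusted p of 0.05. Its levels were 142, 377 and 166 CPM in DMSO replicates 1, 2 and 3 and 81.5, 165 and 108 CPM in GSK-126 replicates 1, 2 and 3. The GSK-126 library was the lower one in each of the 3 pairs, while the groups overlapped because DMSO replicate 1 lay below GSK-126 replicate 2. The means were 228 ± 130 CPM in DMSO and 118 ± 42.8 CPM in GSK-126 (SD, n = 3 each). The edgeR quasi-likelihood test gave a log2 fold change of -0.87 (SE 0.125, 95% interval -1.15 to -0.60) and an adjusted p of 0.00460. Klf13 (GRCm38 chromosome 7, 63886351 to 63938915) has no exon that overlaps another gene. Without the replicate block its fold change was -0.95, with an edgeR adjusted p of 0.829. When replicate 2, which held the highest DMSO value, was left out of the blocked fit the fold change was -0.69 and the edgeR adjusted p 0.0351.

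These calls are read against all genes. Over the 16685 genes tested with the block, 2.23% were called higher, 1.38% lower and 3.61% in either direction, against 0 members higher and 1 of 58 lower. Without the block 0 of 16685 genes (0%) and 0 members were called, and 996 genes (5.97%) and 4 members had an unadjusted p under 0.05. DESeq2 with the block called 2 members lower (1.62% of all genes) and 0 higher (2.48% of all genes). It gave no adjusted p for some low-count members, among them Foxo6 and Foxq1, and these were counted as not called. At an unadjusted p under 0.05 in the blocked edgeR fit, 13 of 58 members passed (16.5% of all genes), 8 of them higher (9.15% of all genes) and 5 lower (7.31% of all genes). The groups did not overlap for 2 members that were higher, Klf2 and Tbx3 (5.41% of all genes), and 2 that were lower, Foxo3 and Foxo6 (5.43% of all genes). In all 3 pairs 20 members were higher (19.6% of all genes) and 10 were lower (19.2% of all genes). The median log2 fold change was 0.11 over the 58 members and -0.00 over all genes, and the median absolute log2 fold change was 0.20 and 0.19.

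**Figure D2:**
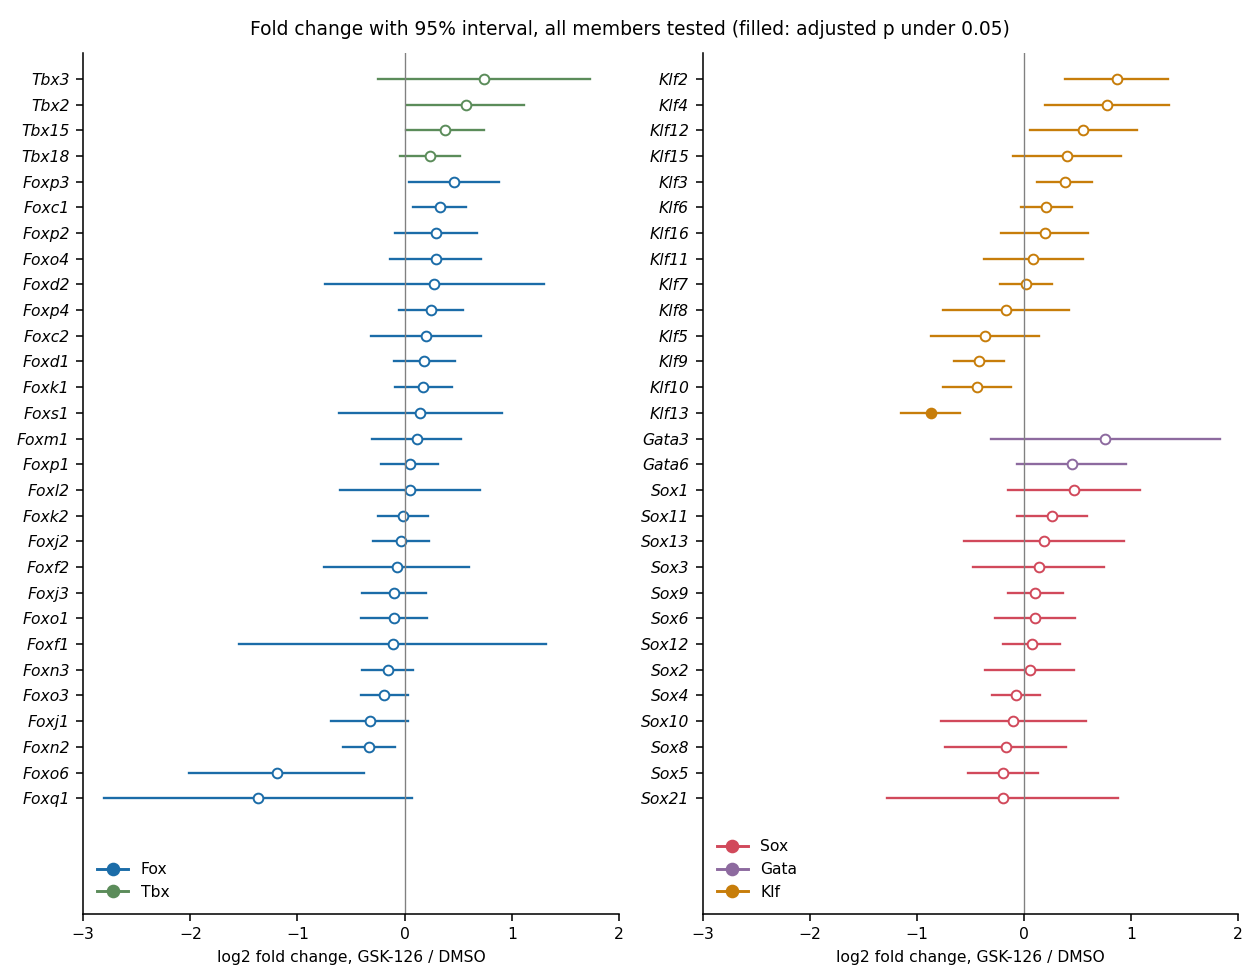
Log2 fold change of GSK-126 over DMSO with its 95% interval from the blocked edgeR fit for the 58 members tested, Fox and Tbx on the left and Sox, Gata and Klf on the right. Klf13, filled, is past an adjusted p of 0.05; the intervals of Klf9, Klf10, Foxo6 and Foxn2 lie below 0 and those of Klf2, Klf4, Klf12, Klf3, Foxc1, Foxp3, Tbx2 and Tbx15 above 0 without passing it.

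Besides Klf13, 4 of the Klf factors that recruit SIN3A were tested, and 0 of these passed the threshold in the blocked edgeR fit. Klf9 had 301, 389 and 317 CPM in the DMSO libraries and 213, 332 and 218 CPM in the GSK-126 libraries. It was lower in 3 of 3 pairs, and the groups overlapped because GSK-126 replicate 2 lay above DMSO replicates 1 and 3. Its log2 fold change of -0.42 (SE 0.106) missed the threshold with edgeR (adjusted p 0.0522) and passed it with DESeq2 (adjusted p 0.0206). Klf9 (chromosome 19, 23141226 to 23168134) was 336 ± 47.1 CPM in DMSO and 254 ± 67.1 CPM in GSK-126 (SD, n = 3). Klf10, an early TGF-beta response gene, had 51.1, 49.985 and 41.1 CPM in DMSO and 29.9, 43.0 and 32.9 CPM in GSK-126. Its libraries were also lower in 3 of 3 pairs, with a log2 fold change of -0.44 (edgeR adjusted p 0.146) that was -0.27 without replicate 1. The other members of the subgroup had 0.09 for Klf11 and 0.19 for Klf16, and Klf14 was not tested (2 counts in all). Of the 5 tested, 1 was called lower and 0 higher, with a median log2 fold change of -0.42.

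The activating Klf factors included the highest fold changes of the family. Klf2, an endothelial and quiescence factor, had 6.57, 7.75 and 11.9 CPM in DMSO and 13.4, 17.3 and 16.2 CPM in GSK-126. Every GSK-126 library lay above every DMSO library. Its log2 fold change was 0.87 (SE 0.218, 95% interval 0.39 to 1.34, edgeR adjusted p 0.0532; DESeq2 adjusted p 0.0559). Klf2 lies on chromosome 8 (72319033 to 72321656). Klf4, known from pluripotency and from smooth muscle and astrocyte reactions, had 4.26, 9.87 and 18.4 CPM in DMSO and 13.7, 15.2 and 21.2 CPM in GSK-126. All 3 pairs were higher, but by unequal amounts, with log2 ratios of 1.64, 0.61 and 0.20 in pairs 1, 2 and 3. Its log2 fold change was 0.77 with an SE of 0.262 (edgeR adjusted p 0.156). Without replicate 3 both genes passed the threshold, Klf2 at 1.09 (edgeR adjusted p 0.0356) and Klf4 at 1.13 (edgeR adjusted p 0.0353). Without replicate 1 Klf2 was at 0.78 (edgeR adjusted p 0.109) and Klf4 at 0.39 (edgeR adjusted p 0.375), and without replicate 2 they were at 0.74 (edgeR adjusted p 0.231) and 0.86 (edgeR adjusted p 0.235). Klf6 (0.21), Klf7 (0.02) and Klf5 (-0.36) had edgeR adjusted p-values from 0.376 to 0.962, and 39.4% of the Klf7 exon bases lie under opposite-strand genes. Klf1, the erythroid member, was not tested.

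The Klf repressors that bind CtBP were split. Klf3 had 80.9, 54.7 and 85.4 CPM in DMSO and 103, 82.8 and 98.2 CPM in GSK-126, higher in 3 of 3 pairs, and its log2 fold change of 0.38 had an SE of 0.118 (edgeR adjusted p 0.118). Klf12 had 27.9, 13.5 and 16.3 CPM in DMSO and 24.4, 28.8 and 28.9 CPM in GSK-126. It was lower in pair 1 and higher in the other two, with a log2 fold change of 0.55 (edgeR adjusted p 0.246), and without replicate 1 it passed the threshold (0.96, edgeR adjusted p 0.0137). Without replicate 2 Klf12 had 0.32 (edgeR adjusted p 0.611) and without replicate 3 it had 0.42 (edgeR adjusted p 0.599). Klf8 had a log2 fold change of -0.17. Klf15, a metabolic and glucocorticoid-induced member outside these subgroups, had 0.40 (edgeR adjusted p 0.428) and was higher in 3 of 3 pairs. Of 8 cofactor genes for CtBP, SIN3, HDAC and p300 proteins, 8 were tested and 0 were called, with a median log2 fold change of -0.05. Ctbp1 (-0.13), Ctbp2 (-0.08), Hdac1 (-0.13) and Hdac2 (-0.31, edgeR adjusted p 0.159) were lower in 3 of 3 pairs.

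**Figure D3:**
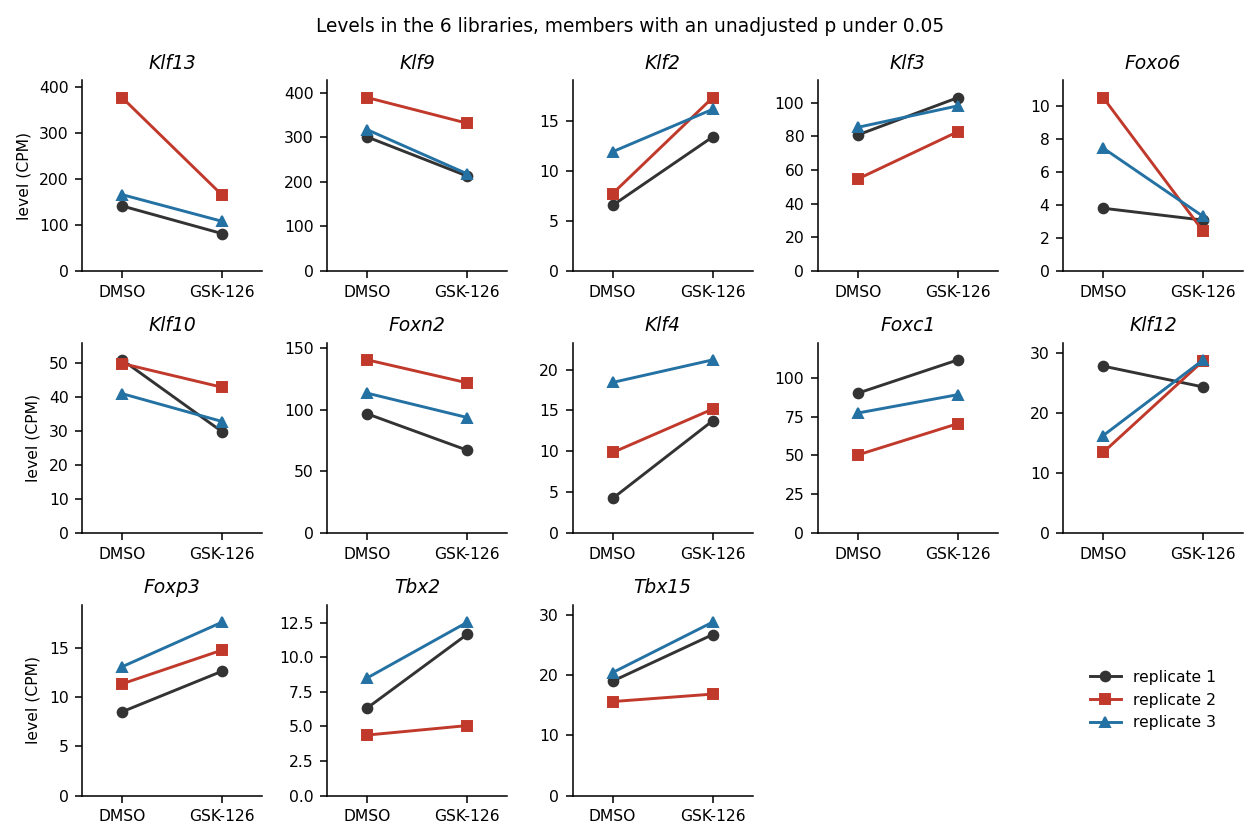
CPM in the 6 libraries of the 13 members with an unadjusted p under 0.05, each panel starting at 0, with lines joining the DMSO and GSK-126 libraries of the same replicate number. Klf13, Klf9, Foxo6, Klf10 and Foxn2 slope down in 3 of 3 pairs, and Klf12 is the one gene in which a pair goes against the others.

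Of the Fox genes, 25 were tested, 0 were called, 13 had a log2 fold change above 0 and 12 below 0, with a median of 0.05. The FoxO factors link insulin signalling to stress and survival genes. Foxo6, the neuronal member, had 3.80, 10.5 and 7.44 CPM in DMSO and 3.08, 2.41 and 3.30 CPM in GSK-126. Its groups did not overlap, but DMSO replicate 1 lay close to the GSK-126 libraries. Its log2 fold change was -1.19 (SE 0.372, 95% interval -2.01 to -0.38, edgeR adjusted p 0.1196), and without replicate 1 it was -1.63 with an edgeR adjusted p of 0.0298. Without replicate 2 it was -0.73 (edgeR adjusted p 0.485) and without replicate 3 it was -1.21 (edgeR adjusted p 0.202). Foxo3 was far more abundant and varied little, with 297, 273 and 298 CPM in DMSO and 250, 255 and 256 CPM in GSK-126. Every GSK-126 library lay below every DMSO library, although the log2 fold change was only -0.19 (95% interval -0.41 to 0.03, edgeR adjusted p 0.388). Foxo1 had -0.10 and Foxo4 0.29.

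The FoxP repressors, known for speech circuits (Foxp1, Foxp2) and regulatory T cells (Foxp3), all had positive log2 fold changes, 0.05 for Foxp1, 0.29 for Foxp2, 0.25 for Foxp4 and 0.46 for Foxp3, and 0 of the 4 were called. Foxp3 had 8.53, 11.4 and 13.1 CPM in DMSO and 12.7, 14.8 and 17.7 CPM in GSK-126 (edgeR adjusted p 0.255). Opposite-strand genes overlap 18.7% of its exons and a same-strand gene 18.6%, and the strand setting of the count is not stated, so reads at this locus are uncertain. Foxn2 had 96.5, 140 and 113 CPM in DMSO and 67.1, 122 and 93.5 CPM in GSK-126, lower in 3 of 3 pairs, and its log2 fold change of -0.33 had an SE of 0.112 (edgeR adjusted p 0.152). Its relative Foxn3 had -0.16, also lower in 3 of 3 pairs. Foxj1, the master factor of motile cilia, had -0.33 (edgeR adjusted p 0.364). Foxm1, which drives mitotic genes, had 0.11 (95% interval -0.30 to 0.52). Foxq1 had the lowest fold change of all members, -1.37, but from 1.61, 3.999 and 3.78 CPM in DMSO and 2.42, 0.482 and 0.797 CPM in GSK-126. Its edgeR adjusted p was 0.331, pair 1 went the other way, and without replicate 1 the log2 fold change was -2.58 (edgeR adjusted p 0.0313). Over the 11 alternatives it ran from -2.58 to -0.70. An opposite-strand gene covers 66.1% of its exon bases.

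Of the Sox genes, 13 were tested and 0 were called, with log2 fold changes from -0.20 to 0.47 and a median of 0.07. Of the SoxC factors of young neurons, Sox4 and Sox12 were the most abundant Sox genes per kilobase. Sox4 had 222, 153 and 221 CPM in DMSO and 221, 149 and 194 CPM in GSK-126, a log2 fold change of -0.08 (95% interval -0.30 to 0.15). Sox12 had 101, 94.0 and 108 CPM in DMSO and 106, 118 and 94.6 CPM in GSK-126, a log2 fold change of 0.07 (95% interval -0.20 to 0.34). Sox11 had 0.26 and was higher in 3 of 3 pairs (edgeR adjusted p 0.421). The SoxB factors of neural progenitors ranged from -0.20 for Sox21 to 0.47 for Sox1. The SoxE factors of glia ranged from -0.17 for Sox8 to 0.11 for Sox9, and the SoxD factors from -0.20 for Sox5 to 0.19 for Sox13.

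All 4 T-box genes and both Gata genes that were tested had positive log2 fold changes, and 0 of these 6 were called. They were higher in 3 of 3 pairs, as were 19.6% of all genes tested. A further 9 Tbx and 4 Gata genes were not tested. Tbx2, a repressor of senescence genes, had 6.34, 4.37 and 8.51 CPM in DMSO and 11.7, 5.06 and 12.5 CPM in GSK-126, with a log2 fold change of 0.57 (edgeR adjusted p 0.279). Tbx15 had 19.01, 15.6 and 20.4 CPM in DMSO and 26.7, 16.9 and 28.8 CPM in GSK-126, a log2 fold change of 0.37 (edgeR adjusted p 0.291). In both genes replicate 2 was the lowest of its group. Tbx3 had 1.15, 2.00 and 1.54 CPM in DMSO and 2.25, 2.65 and 2.85 CPM in GSK-126, with no overlap, a log2 fold change of 0.74 and a wide 95% interval from -0.25 to 1.73. Tbx18, with 20.6% of its exons under an opposite-strand gene, had 0.23. Gata6 had 7.03, 4.62 and 11.1 CPM in DMSO and 8.50, 7.71 and 14.3 CPM in GSK-126 (0.44, edgeR adjusted p 0.382). Gata3 had 0.76 from 0.576, 1.4996 and 2.01 CPM in DMSO and 1.42, 2.17 and 3.07 CPM in GSK-126.

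Several of these genes are known from mesenchyme and mural cells. A list of 12 such members (Foxc1, Foxc2, Foxd1, Foxf1, Foxf2, Foxl2, Foxs1, Tbx2, Tbx3, Tbx15, Tbx18 and Gata6), drawn up after the values were seen and so described without a test, had a median log2 fold change of 0.22, with 10 above 0 and 0 called. Their summed level was 164 to 261 CPM in DMSO and 209 to 308 CPM in GSK-126. Foxc1, which the meninges and pericytes require, had 90.003, 50.4 and 77.3 CPM in DMSO and 111, 70.4 and 89.1 CPM in GSK-126, and its log2 fold change of 0.33 had an SE of 0.113 (edgeR adjusted p 0.162). Of 8 markers of mural cells and fibroblasts, 8 had a positive log2 fold change and 3 were called higher with the block (Acta2, Col1a1 and Pdgfrb). Their summed level was 4881 to 6634 CPM in DMSO and 7208 to 7909 CPM in GSK-126, and none was at 0. Of 10 markers of granule neurons, 7 were called lower in the same fit (Cbln1, Cbln3, Etv1, Gabra6, Neurod1, Rbfox3 and Slc17a7), with summed levels of 4017 to 6206 CPM in DMSO and 2812 to 4425 CPM in GSK-126. Other marker lists were mixed. For astrocytes (Gdf10), the oligodendrocyte lineage (Cspg4), microglia (Cd68) and endothelium (Flt1), 1 marker each was called higher. Above 0 were 5 of 8, 5 of 8, 6 of 8 and 4 of 7 markers tested. Slc32a1 of GABAergic neurons and Eomes of unipolar brush cells were called lower. Of the markers of dividing cells and of ependymal cells, 0 were called. The part of these cell types in the members' values was not tested, and fewer cells of a type and less RNA per cell cannot be told apart in bulk libraries.

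Only replicate 2 was counted for how often it held the lowest or highest level of both groups. These counts do not by themselves set it apart from the other replicates. In 19 of the 58 members (32.8%, against 21.001% of all genes tested) it held the lowest level of both groups, and in 8 (13.8%, against 20.7%) the highest. Sox9, the astrocyte and Bergmann glia factor, had 87.0, 37.2 and 69.0 CPM in DMSO and 103, 37.5 and 71.9 CPM in GSK-126. The replicate difference of Sox9 was -1.05 in DMSO and -1.19 in GSK-126 on the log2 scale, while its log2 fold change was 0.11. Sox2, Foxc1, Foxs1, Tbx18 and Gata6 were likewise lowest in replicate 2. Klf13 went the other way, 1.30 above the mean of the other two replicates in DMSO and 0.81 above it in GSK-126 (log2). Klf9 and the oligodendrocyte factor Sox10 were also highest in replicate 2 of both groups. Summed markers of the oligodendrocyte lineage did not follow Sox10. They were lowest in replicate 2, with 720, 500 and 752 CPM in DMSO and 874, 556 and 777 CPM in GSK-126. Summed markers of astrocytes and Bergmann glia were 2536 and 2531 CPM in the 2 libraries of replicate 2 and 4018 to 7846 CPM in the others, and those of granule neurons were highest in replicate 2 of each group. Summed markers of mural cells and fibroblasts were 4881, 5329 and 6634 CPM in DMSO and 7443, 7208 and 7909 CPM in GSK-126. Replicate 2 was therefore their lowest library in GSK-126 but not in DMSO.

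**Figure D4:**
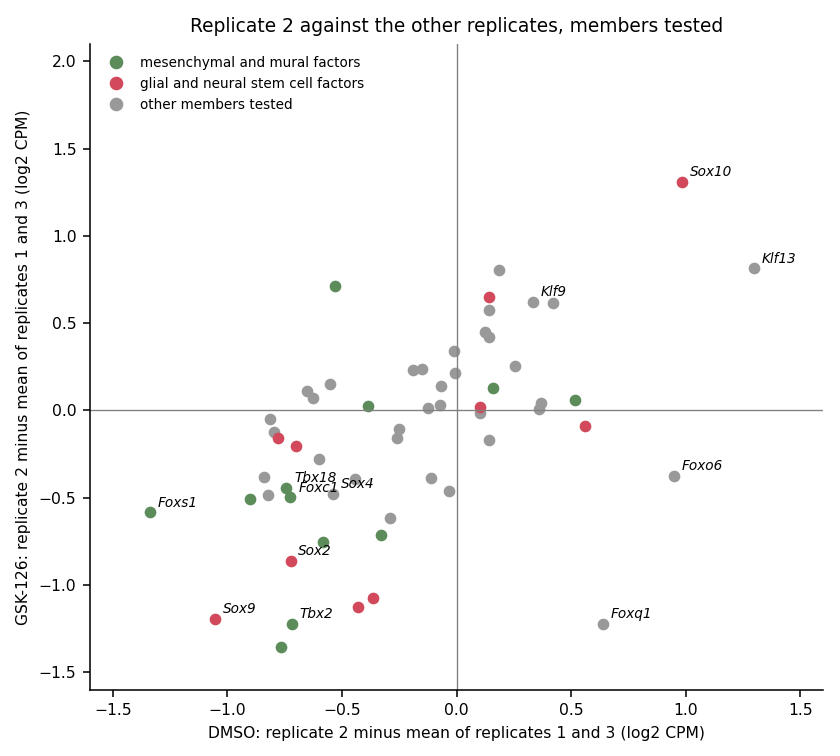
Difference of replicate 2 from the mean of replicates 1 and 3 in log2 CPM, in DMSO on the x axis and in GSK-126 on the y axis, for the 58 members tested. Sox9 (-1.05 and -1.19) and most mesenchymal factors lie at the lower left, Klf13 (1.30 and 0.81) and Sox10 at the upper right, and Foxo6 and Foxq1 differ between the groups.

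The 41 members that were not tested were silent or nearly so in both groups. Their summed raw counts were 41, 35 and 58 in the DMSO libraries and 64, 49 and 37 in the GSK-126 libraries, a ratio of 1.119 in counts and 0.968 in CPM. At 0 in all 6 libraries were 19 genes, Foxa1, Foxa2, Foxa3, Foxb1, Foxb2, Foxd3, Foxe3, Foxi1, Foxi2, Foxi3, Foxn1, Foxr1, Gata1, Gata4, Gata5, Klf17, Sox14, Tbx4 and Tbx5. They include the endoderm factors of the FoxA class, the erythroid and heart Gata factors and the limb factors Tbx4 and Tbx5. A count of 0 allows up to 3 counts, or 0.249 to 0.372 CPM depending on the library (counting error only, since PCR duplicates carried no molecular identifier). No member reached 1 CPM in all 3 GSK-126 libraries while staying below it in all 3 DMSO libraries.

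The other 22 members had 1 to 51 counts over the 6 libraries. Sox7, a SoxF factor of endothelium, had 2, 8 and 11 counts in DMSO and 12, 6 and 12 in GSK-126. Gata2 had 6, 3 and 16 counts in DMSO and 6, 3 and 3 in GSK-126. Tbx6, a factor of presomitic mesoderm, had 13, 5 and 5 counts in DMSO and 2, 6 and 0 in GSK-126. Foxr2 had 0, 4 and 3 against 4, 8 and 2 counts, and Klf1 had 0, 0 and 4 against 0, 0 and 2. Sox15 (3, 4 and 0 against 15, 1 and 1) and Sox30 (2, 0 and 0 against 15, 0 and 5) had most of their counts in GSK-126 replicate 1, the deepest library. In CPM, which allows for depth, that library was also the highest for both genes, at 1.25 each. The counts of all these genes overlapped between groups. Tbx1 (0, 0 and 0 against 0, 5 and 6), named after its values were seen, had counts in GSK-126 replicates 2 and 3 and in no other library.

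**Figure D5:**
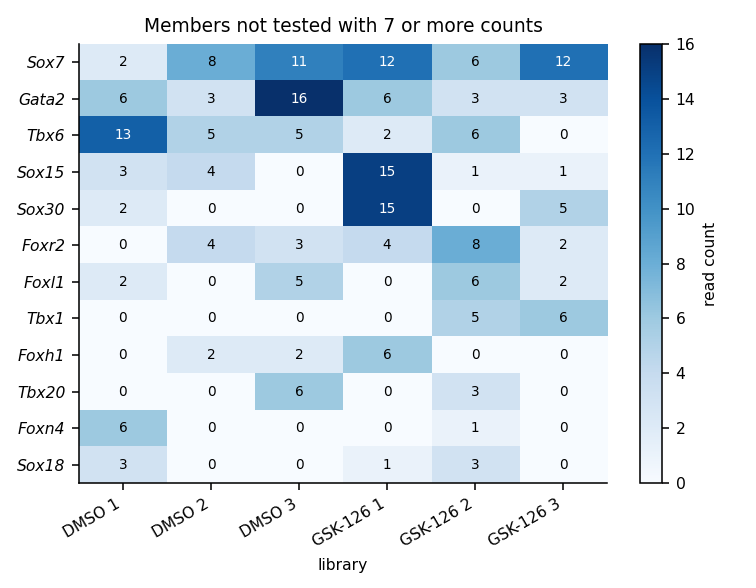
Raw read counts of the 12 members that were not tested and had at least 7 counts over the 6 libraries, with 1 row per gene and 1 column per library and darker blue for higher counts. The highest cell is 16 counts of Gata2 in DMSO replicate 3, and no row has counts in all GSK-126 libraries and 0 in all DMSO libraries.

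The promoter lists published with the study, made by chromatin profiling, were used to place the members. The list of promoters with less H3K27me3 after GSK-126 in culture held 4 members, Klf4, Klf12, Klf15 and Foxi2. The Klf genes were tested, with log2 fold changes of 0.77, 0.55 and 0.40 and 0 called, and Foxi2 had 0 counts in all libraries. All 379 genes of that list that were tested had a median of 0.25, with 39 called higher and 3 lower with the block. The list with more H3K27me3 after GSK-126 held 1 member, Foxh1 (10 counts in all, not tested). Promoters losing the mark fast as the cerebellum matures in vivo included 10 members, of which 2 were tested, Klf2 (0.87) and Foxo1 (-0.10). All 519 genes of the fast list that were tested had a median of -0.11, with 12 called higher and 52 lower. Those losing it slowly included 17 members, of which 9 were tested and 0 called, with log2 fold changes from -1.37 for Foxq1 to 0.74 for Tbx3 and a median of 0.05. All 568 genes of the slow list that were tested had a median of 0.03, with 24 called higher and 28 lower. Some members, such as Foxo1 and Gata2, were on both lists. Sox11 (0.26) was the 1 member among the promoters gaining the mark. All 163 genes of the gaining list that were tested had a median of 0.19, with 15 called higher and 1 lower.

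Relatives outside the name rule were counted in the same fit. Of 4 further T-box genes, 2 were tested and 1 was called, Eomes, the factor of unipolar brush cells, whose log2 fold change was -1.123 with an SE of 0.250 (edgeR adjusted p 0.0315), lower in 3 of 3 pairs. Of the 9 Sp factors, the closest relatives of Klf proteins, 6 were tested and 0 called (median 0.01), and of 7 genes for GATA cofactors and GATA-type fingers 6 were tested and 0 called (median 0.05).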

How the data were processed

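Each library had 1 deposited table of read counts over 55341 genes, unscaled, which the authors made from paired-end poly(A) RNA-seq reads trimmed with Trimmomatic 0.38, aligned to GRCm38 with STAR 2.7.2b and counted over exons with HTSeq; the strand setting is not given in the sources used here. Multiply aligned reads were not assigned. The 5 summary rows were dropped (reads over no exon were 44.8% to 46.7%, multiply aligned 9.54% to 10.4%, unaligned 1.74% to 5.03%).

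Genes with CPM of 1 or more in at least 3 of 6 libraries were tested in R 4.3.3 with edgeR 4.0.16 (quasi-likelihood F test, TMM factors, treatment and replicate number as terms, Benjamini-Hochberg adjustment over all genes tested, threshold 0.05). DESeq2 1.42.0, limma-voom (limma 3.58.1), other scalings and filters, no block and left-out replicates were alternatives. As a check of the pairing, each library's deviation from its group mean was correlated with those of the other group. This gave r of 0.34, 0.48 and 0.50 over genes for equal replicate numbers and -0.39 to -0.01 for unequal ones. Centring on the group means ties these values together, so the negative ones are not separate support for the pairing. The study's methods describe a replicate as pooled litters. CPM use TMM factors, and log2 CPM a prior count of 2. Coordinates and exon lengths came from GENCODE M21 (GRCm38), and promoter sequences from RefSeq.

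Members and lists were chosen with earlier results of these data known. Per-library values are given for members past the threshold in either fit or with DESeq2 and for those with an unadjusted p under 0.05, levels for the 2 highest members per family, and counts for the highest untested member per family and all members at 0. Per-library values of other members were added after their values were seen.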

Additional observations from a re-analysis of the deposited data

How the results depend on the processing

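With RLE factors, no scaling beyond totals and filterByExpr, the numbers of members called were unchanged at 0 higher and 1 lower (Klf13). Without the replicate block 0 genes were called higher and 0 lower, and 0 members lower; all 3 same-number correlations were above 0.1, so the numbers were taken to pair the libraries. DESeq2 and limma-voom each called 2 members lower, Klf13 and Klf9, as did the robust quasi-likelihood fit (2 lower), which was chosen after seeing the data. With no filter beyond 1 count, 708 genes were called higher and 428 lower, with 2 members higher (Klf2 and Klf4) and 3 lower (Klf13, Klf9 and Foxo6). Leaving out a replicate number removes both its libraries. Genes called higher then ran from 167 to 372 and lower from 74 to 286, each lowest without replicate 2, and without replicate 3 there were 227 higher. Members called higher ran from 0 to 2 (Klf12 without replicate 1, Klf2 and Klf4 without replicate 3) and lower from 1 to 3 (Klf13, with Foxo6 and Foxq1 without replicate 1). The causes were not tested. The log2 fold change of Klf13 ran from -0.996 to -0.69 over 11 alternatives. With CPM thresholds of 0.5 and 2, 60 and 56 members passed. Depth limits the members under about 1 CPM, which is 8.06 to 12.05 counts per library, and 3 pairs of libraries limit the precision of all fold changes.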
